A study of Mus musculus with 8 samples.

Results

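T cell and NK cell genes were few in reads in PyMt mammary tumors. The group described here holds 36 genes that T cells and NK cells use, listed by gene symbol and grouped by their known roles, out of 55414 mouse gene identifiers in the count table. All 36 symbols matched 1 row each, and 35 of them had at least 1 count in some tumor. RNA was sequenced from tumors of the PyMt cell line, which comes from an MMTV-PyMt transgenic mouse, where the mouse mammary tumor virus promoter drives the polyoma middle T oncogene in mammary epithelium. Recipients of the injected tumor cells were WT C57BL/6 female mice, 6 to 8 weeks old, and the site was the inguinal mammary fat pad. Calcipotriol, a vitamin D analog, was applied to the skin over the tumor at 20 nmol in EtOH every 2 days from 2 days after implantation, and the control mice received the EtOH solvent alone. Tumors were taken 24 hours after the last application, from 4 EtOH-treated mice (replicates 1, 2, 3 and 4) and 4 calcipotriol-treated mice (replicates 1, 5, 6 and 7), with 1 library for each tumor.

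T cells recognize antigen through the T cell receptor, whose CD3 and zeta chains pass the signal through the kinases LCK and ZAP-70 to the adaptor LAT, while CD4 or CD8 binds the MHC molecule that presents the antigen. CD28 and ICOS add to this signal, and CTLA-4 and PD-1 dampen it. Cytotoxic T cells and NK cells kill through perforin, which opens the target cell, and granzymes, which cut proteins inside it. In mammary tumors these cells are a minority beside tumor cells and macrophages, so their genes take few reads of a bulk library. In bulk RNA, fewer cells of a type and less RNA per cell cannot be told apart.

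Library totals were 19685419 to 25084713 counts, and by these totals 3 counts in 1 library were worth 0.12 to 0.152 CPM (counts per 1000000 counts of the library). The CPM values of genes and sums used library sizes after TMM normalization, which differ somewhat from these totals. The labels call the cells epithelial, and 5 epithelial markers, Krt8 and Krt18 among them, summed to 592.2 CPM or more in every tumor, but Epcam had 0 counts in EtOH replicates 1 and 2, 106 in EtOH replicate 3 and 65 in EtOH replicate 4, against 38, 26, 398 and 536 with calcipotriol. The 10 macrophage markers summed to 3509 to 4552 CPM with EtOH and 1337 to 2575 CPM with calcipotriol. Calcipotriol replicate 1 stood apart from the other libraries in the T cell and NK cell genes. It held the highest CPM of 22 of the 34 members other than Tcf7 and Il2rg, and values without it are given where it moved a result. The EtOH-treated tumors were not uniform in some other markers. In EtOH replicates 1, 2, 3 and 4, Krt19 had 0, 0, 149 and 162 counts. Neutrophil markers summed to 95, 106.7, 32.8 and 30.8 CPM, and mast cell and basophil markers to 15.9, 18.2, 56.5 and 53.8 CPM. T cell receptor constant regions were more even, at 1.70, 1.70, 1.66 and 1.54 CPM. The cause was not tested.

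The promoters of 3 genes whose counts did not overlap between the groups are shown because they share a short motif, and their counts follow further on. Each window runs from 250 bases before to 50 bases after the RefSeq start (GRCm38.p6), on the gene's own strand. Capitals mark TGTGGT or its reverse complement ACCACA, the core that RUNX transcription factors bind.
Gzmb (granzyme B, chr14:56262285-56262584, minus strand): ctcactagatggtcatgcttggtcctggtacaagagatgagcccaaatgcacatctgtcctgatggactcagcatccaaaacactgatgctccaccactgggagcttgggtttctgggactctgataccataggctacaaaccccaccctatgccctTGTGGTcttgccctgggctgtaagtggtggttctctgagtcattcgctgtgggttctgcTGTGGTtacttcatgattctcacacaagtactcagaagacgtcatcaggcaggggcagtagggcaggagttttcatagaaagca
Gzma (granzyme A, chr13:113100932-113101231, minus strand): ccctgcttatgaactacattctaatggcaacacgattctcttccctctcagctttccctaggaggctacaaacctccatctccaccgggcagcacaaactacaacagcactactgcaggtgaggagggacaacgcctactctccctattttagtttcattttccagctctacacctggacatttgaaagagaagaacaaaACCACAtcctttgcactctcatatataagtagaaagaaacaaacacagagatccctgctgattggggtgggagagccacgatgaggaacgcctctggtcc
Nkg7 (a cytotoxic granule protein, chr7:43436888-43437187, plus strand): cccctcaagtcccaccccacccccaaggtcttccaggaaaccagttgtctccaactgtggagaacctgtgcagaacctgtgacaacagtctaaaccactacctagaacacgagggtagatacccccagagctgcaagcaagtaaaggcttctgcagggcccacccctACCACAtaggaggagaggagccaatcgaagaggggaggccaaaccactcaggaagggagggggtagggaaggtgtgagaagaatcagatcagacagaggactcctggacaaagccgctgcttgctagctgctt
The Gzmb window held 2 matches and the windows of Gzma and Nkg7 held 1 each. A window was found for 28 of the 36 members, and the motif was present on either strand in at least 1 window of 11 of them, among which were also Prf1, Lck, Zap70, Lat, Klrk1, Ncr1, Klrb1c and Il2rg. Of the other members whose counts did not overlap, Ctla4, Themis and Tcf7 had windows with no match, and no window was found for Cd4 and Il2rb. Some members have more than 1 window, and counted by window the motif was present in 12 of the 34 member windows. It was present in 16.8% of all 32851 promoter windows of this length. The T-box motif TCACACC on either strand was found in the Nkg7 window only, and in 3.98% of all windows. The vitamin D response element known as DR3 (direct repeats spaced by 3 bases, either strand) had no match in the 34 windows of the members and was found in 0.0396% of all windows. These matches describe letters in the windows and do not show binding.

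Most of the reads of the group came from 2 genes. Tcf7, which encodes the transcription factor TCF-1 of the Wnt pathway and of T cell development, and Il2rg, the common gamma chain of the receptors for interleukin 2 and related cytokines, are also used by cells other than T and NK cells. Together they held 86.5% to 92.1% of the members' counts with EtOH and 48.1% to 71.1% with calcipotriol. Per kilobase of exon, Tcf7 was at 22.8 CPM with EtOH and 11.3 CPM with calcipotriol, Il2rg at 10.2 and 6.44 CPM, and the next member, Gzmb, at 0.432 and 2.84 CPM.

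Tcf7 was the 1 member past both thresholds, and it fell. The thresholds were a Benjamini-Hochberg adjusted p under 0.05 over all 14458 genes tested with edgeR's quasi-likelihood test and a log2 fold change of 1 or more in size. Its gene lies on chromosome 11 (GRCm38, 52252371 to 52283014, minus strand, ENSMUSG00000000782). It had 1259, 1500, 1256 and 1223 counts in EtOH replicates 1, 2, 3 and 4, and 586, 551, 724 and 836 counts in calcipotriol replicates 1, 5, 6 and 7. Every calcipotriol-treated tumor was below every EtOH-treated tumor. The mean was 59.8 ± 9.84 CPM (SD, n = 4) for EtOH against 29.7 ± 6.34 CPM (SD, n = 4) for calcipotriol, and the log2 fold change was -1.01 ± 0.18 (SE, adjusted p = 0.0206 from edgeR). Of all genes tested, 0.948% were lower past both thresholds and 1.07% were higher. DESeq2 and limma-voom also called Tcf7 lower, against 1.91% and 1.03% of the genes they tested. The value sits close to the fold threshold, and it was not past both thresholds when EtOH replicate 1 (log2 fold change -0.99), EtOH replicate 2 (-0.90), calcipotriol replicate 1 (-0.91) or calcipotriol replicate 5 (-0.94) was left out.

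Il2rg (chromosome X, 101264378 to 101268255) had 346, 572, 626 and 612 counts with EtOH and 709, 231, 198 and 312 with calcipotriol. Calcipotriol replicate 1 was the highest of all 8 tumors and the other 3 calcipotriol-treated tumors were the lowest. The log2 fold change was -0.66 ± 0.33 (SE, adjusted p = 0.325 from edgeR), and without calcipotriol replicate 1 it was -1.13 (adjusted p = 0.0162 from edgeR), which passes both thresholds. In that fit 642 genes passed both thresholds in either direction, against 292 with all 8 tumors. Of the exon bases of Il2rg, 30.5% are shared with the transcript Gm20489 on the same strand.

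The other 34 members together had more counts in each calcipotriol-treated tumor than in any EtOH-treated tumor. Their summed counts were 250, 224, 163 and 157 with EtOH and 1399, 502, 437 and 467 with calcipotriol. The summed level was 9.15 ± 2.80 CPM (SD, n = 4) for EtOH against 29.8 ± 17.2 CPM (SD, n = 4) for calcipotriol, a ratio of 3.26. Without calcipotriol replicate 1 the ratio was 2.32, and the remaining 3 tumors, at 19.8 to 22.9 CPM, were still above the EtOH range of 6.60 to 12.2 CPM. Leaving Tcf7 and Il2rg out of the sum was chosen after their values were seen. With them, all 36 members summed to 93.2 ± 12.8 CPM (SD, n = 4) for EtOH against 74.9 ± 21.8 CPM (SD, n = 4) for calcipotriol, and the groups overlapped. No test was run on these sums.

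**Figure D1:**
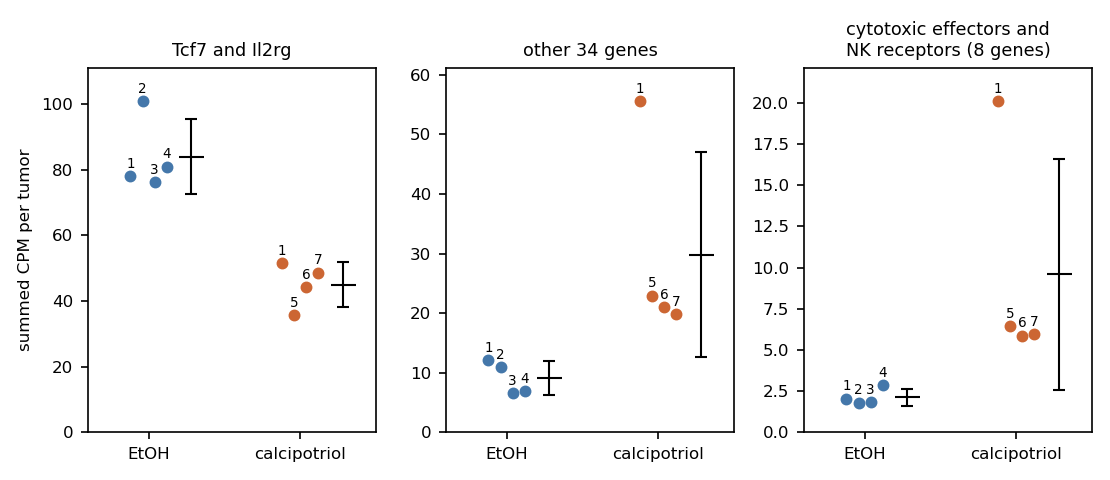
Summed CPM per tumor (vertical axes, from 0) of Tcf7 and Il2rg, of the other 34 genes and of the 8 cytotoxic effector and NK receptor genes, with numbered points for replicates and black marks for the mean ± SD of 4 tumors. Tcf7 and Il2rg were lower in all calcipotriol-treated tumors (35.7 to 51.4 CPM against 76.2 to 100.9 CPM), the other 34 genes were higher, and calcipotriol replicate 1 was the highest point of both right panels.

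Of the 34 genes, 30 had a higher mean CPM with calcipotriol, 3 a lower one, and Fasl, the ligand of the death receptor FAS, had 0 counts in all tumors. Without calcipotriol replicate 1 the numbers were 28 and 5. Low genes in general leaned the same way. Among all 7826 genes with 10 to 500 summed counts, 61.7% had a higher mean CPM with calcipotriol, against 28 of the 31 members in that range. Of the same genes, 5.49% had groups that did not overlap with calcipotriol higher, against 7 of the 31 members. The 7 were Cd4, Themis, Ctla4, Il2rb, Nkg7, Gzma and Gzmb. Over all 19442 genes with 10 or more summed counts, 5.86% were higher and 4.72% were lower without overlap, and Tcf7 was the member that was lower.

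**Figure D2:**
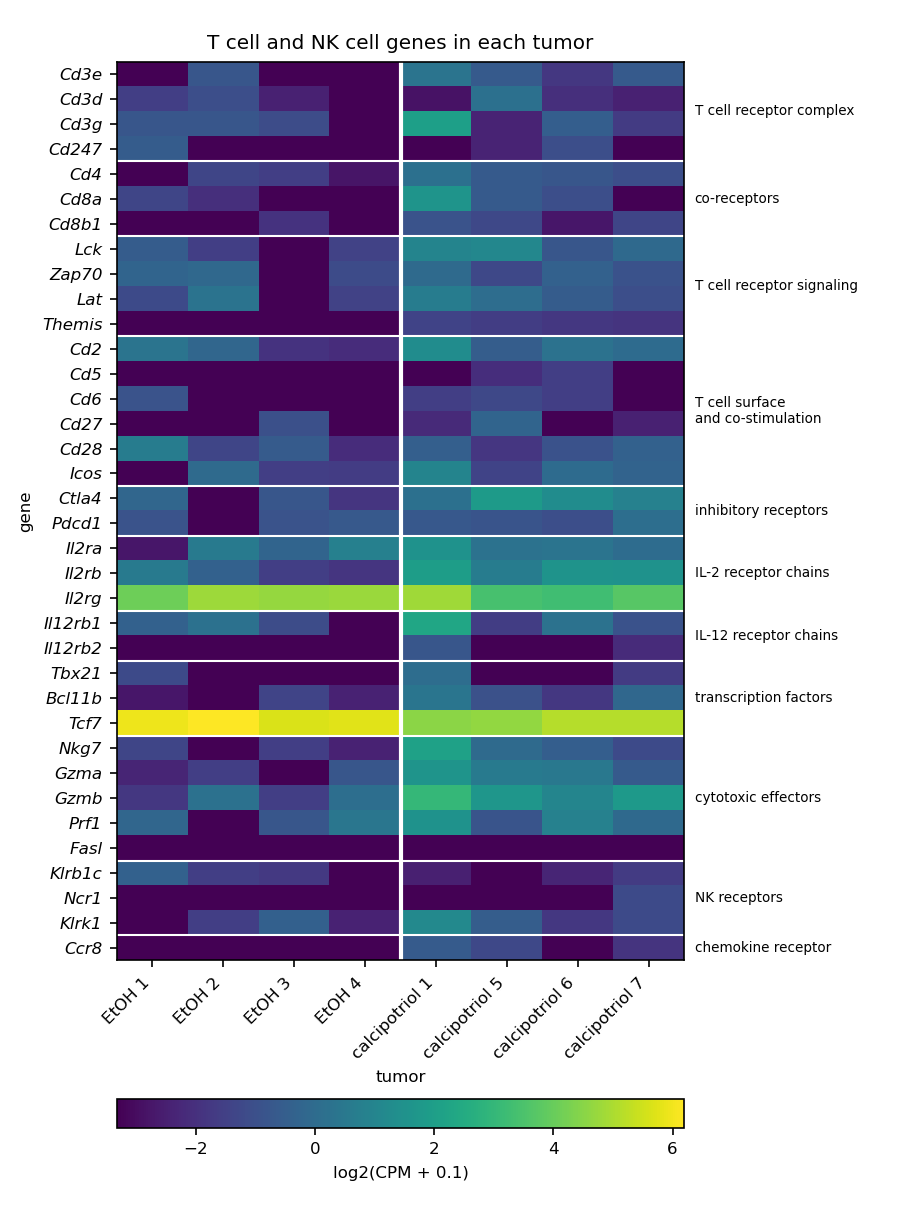
Level of each of the 36 genes (rows, grouped by role) in each of the 8 tumors (columns) as log2(CPM + 0.1), where the darkest color is 0 counts. Tcf7 and Il2rg form the bright rows in all tumors, EtOH-treated tumors had 12 to 17 of the 36 genes at 0 and calcipotriol-treated tumors 4 to 6, and calcipotriol replicate 1 is the brightest column over most other genes.

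edgeR's filter on low counts left 18 of the 36 members for a test and removed the other 18. It keeps a gene with enough counts in 4 tumors, so a low gene could be kept through the group where it was higher. No member was higher past both thresholds in edgeR, where 6 of the 18 had an unadjusted p under 0.05 (Gzmb, Il2rb, Gzma, Ctla4 and Lck with positive log2 fold changes, and Tcf7). Over all genes tested 18.4% had such a p, and over those with 10 to 500 summed counts 10.1% did. limma-voom called no member higher either. DESeq2 called 5 members higher (Gzmb, Gzma, Nkg7, Il2rb and Ctla4), while it called 2.42% of all 17672 genes it tested higher. With no filter on low counts, edgeR called Gzmb higher and Tcf7 lower, against 1.04% and 0.888% of 23750 genes. The calls of Gzmb, Gzma, Nkg7, Il2rb and Ctla4 therefore depended on the tool or the filter.

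**Figure D3:**
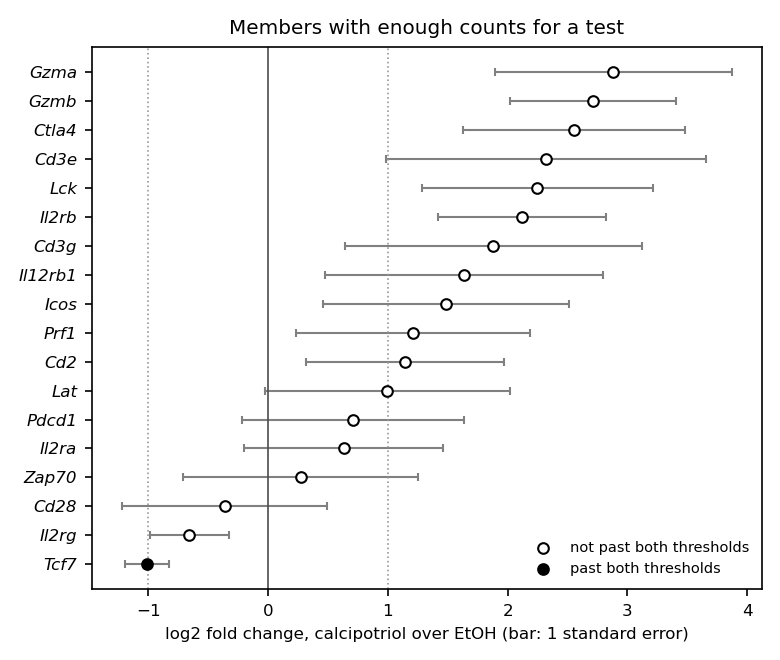
log2 fold change of calcipotriol over EtOH (horizontal axis, with bars of 1 standard error from edgeR) for the 18 members with enough counts for a test. Filled points passed both thresholds and open points did not, dotted lines mark a log2 fold change of -1 and 1, and Tcf7 at -1.01 is the only filled point, with Gzma at 2.88 at the other end.

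In 3 of the 5 cytotoxic effector genes the counts did not overlap between the groups, and all 3 were higher with calcipotriol. Gzmb, which encodes granzyme B, lies on chromosome 14 (56258838 to 56262260, minus strand, ENSMUSG00000015437). It had 4, 22, 6 and 22 counts in EtOH replicates 1 to 4 and 200, 68, 40 and 79 counts in calcipotriol replicates 1, 5, 6 and 7. The lowest calcipotriol-treated tumor was above the highest EtOH-treated tumor. The means were 0.62 ± 0.465 CPM (SD, n = 4) and 4.08 ± 2.65 CPM (SD, n = 4), and the log2 fold change was 2.71 ± 0.69 (SE, adjusted p = 0.0675 from edgeR). It was 0.0367 from edgeR with no filter, 0.00126 from DESeq2, 0.112 from limma-voom and 0.113 from edgeR without calcipotriol replicate 1. Gzma, which encodes granzyme A (chromosome 13, 113093825 to 113100981, minus strand), had 2, 5, 0 and 11 counts with EtOH and 74, 31, 27 and 13 with calcipotriol. Its groups did not overlap, though EtOH replicate 4 and calcipotriol replicate 7 were 2 counts apart. The log2 fold change was 2.88 ± 0.99 (SE, adjusted p = 0.153 from edgeR and 0.0299 from DESeq2), and it was 2.37 without calcipotriol replicate 1.

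Nkg7 (chromosome 7, 43437073 to 43438249, plus strand), whose product sits in cytotoxic granules, had 6, 0, 6 and 2 counts with EtOH and 107, 19, 13 and 8 with calcipotriol. The filter removed it, and DESeq2 gave an adjusted p of 0.0284. Without calcipotriol replicate 1 its counts summed to 40 over 3 tumors, against 14 over the 4 EtOH-treated tumors. Prf1, which encodes perforin, had 16, 0, 12 and 28 counts with EtOH and 70, 10, 36 and 20 with calcipotriol. Its groups overlapped, and the log2 fold change was 1.21 ± 0.98 (SE, adjusted p = 0.559 from edgeR), or 0.69 without calcipotriol replicate 1. The 5 cytotoxic effector genes summed to 28, 27, 24 and 63 counts with EtOH and 451, 128, 116 and 120 with calcipotriol, a CPM ratio of 5.36 that was 3.42 without calcipotriol replicate 1.

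The NK receptors did not separate in this way. Klrk1, the activating receptor NKG2D, had 0, 5, 16 and 2 counts with EtOH and 53, 13, 4 and 8 with calcipotriol. Ncr1, the receptor NKp46 that marks NK cells, had 8 counts in calcipotriol replicate 7 and 0 in the other 7 tumors. Klrb1c, which encodes the antigen NK1.1 of C57BL/6 mice, had 24 counts in all with EtOH and 9 with calcipotriol. Over the 3 receptors the sums were 14, 10, 21 and 2 counts with EtOH and 55, 13, 6 and 21 with calcipotriol. Defining NK cell markers were thus at or near 0 in most tumors, and the granzyme counts cannot be assigned to NK cells or to T cells from these libraries.

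The genes of the T cell receptor complex were at the limit of detection. Cd3e (chromosome 9, 44998740 to 45009627, minus strand) had 0, 10, 0 and 0 counts with EtOH and 29, 12, 4 and 13 with calcipotriol. It was detected in all calcipotriol-treated tumors and in 1 EtOH-treated tumor, EtOH replicate 2, whose 10 counts were above the 4 of calcipotriol replicate 6. The mean difference in log2(CPM + 0.1) was 2.01, with a two-sided exact permutation p of 0.0571 (0.0857 adjusted over 3 genes) over the 70 arrangements of the tumors, where the smallest possible p is 0.0286. Cd3g had 10, 10, 9 and 0 counts with EtOH and 101, 2, 13 and 5 with calcipotriol. Its log2 fold change of 1.88 (adjusted p = 0.46 from edgeR) was -0.11 without calcipotriol replicate 1, so its direction rested on that tumor. Cd3d had 15 counts in all with EtOH and 29 with calcipotriol, 23 of them in calcipotriol replicate 5. Cd247, the zeta chain, had 12 and 10 counts in the 2 groups. Of its exon bases, 56.4% lie opposite exons of Pou2f1, a gene of the other strand, and without strand in the library the reads of the 2 genes cannot be told apart. The 4 genes summed to 27, 28, 11 and 0 counts with EtOH and 131, 39, 28 and 20 with calcipotriol, with overlapping CPM and a ratio of 2.94, or 1.70 without calcipotriol replicate 1.

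Cd4 (chromosome 6, 124864692 to 124888221, minus strand) had 0, 6, 6 and 1 counts with EtOH and 26, 12, 10 and 9 with calcipotriol. The groups did not overlap. The mean difference in log2(CPM + 0.1) was 1.68 (two-sided exact permutation p = 0.0286, the smallest the 70 arrangements allow, or 0.0857 after Benjamini-Hochberg adjustment over the 3 genes tested in this way). With 1 calcipotriol-treated tumor left out, the unadjusted p of the exact permutation test was between 0.0571 and 0.0857. These subsets have fewer arrangements, so p moves in coarser steps, and the groups still did not overlap. For Cd4, edgeR with no filter gave an adjusted p of 0.413 over all genes. Cd4 is also made at low levels by some macrophages and dendritic cells. Cd8a (chromosome 6, 71373427 to 71379173, plus strand) had 6, 3, 0 and 0 counts with EtOH and 73, 12, 8 and 0 with calcipotriol, with 73 of the 93 counts in calcipotriol replicate 1. Its mean difference in log2(CPM + 0.1) was 1.65 (two-sided exact permutation p = 0.2, also after adjustment), and 0.84 (exact permutation p = 0.4) without calcipotriol replicate 1. Cd8b1, the second chain of CD8, had 4 counts in all with EtOH and 26 with calcipotriol. The 3 co-receptors summed to 6, 9, 10 and 1 counts with EtOH and 110, 31, 19 and 16 with calcipotriol, a CPM ratio of 6.26 that was 3.40 without calcipotriol replicate 1.

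**Figure D4:**
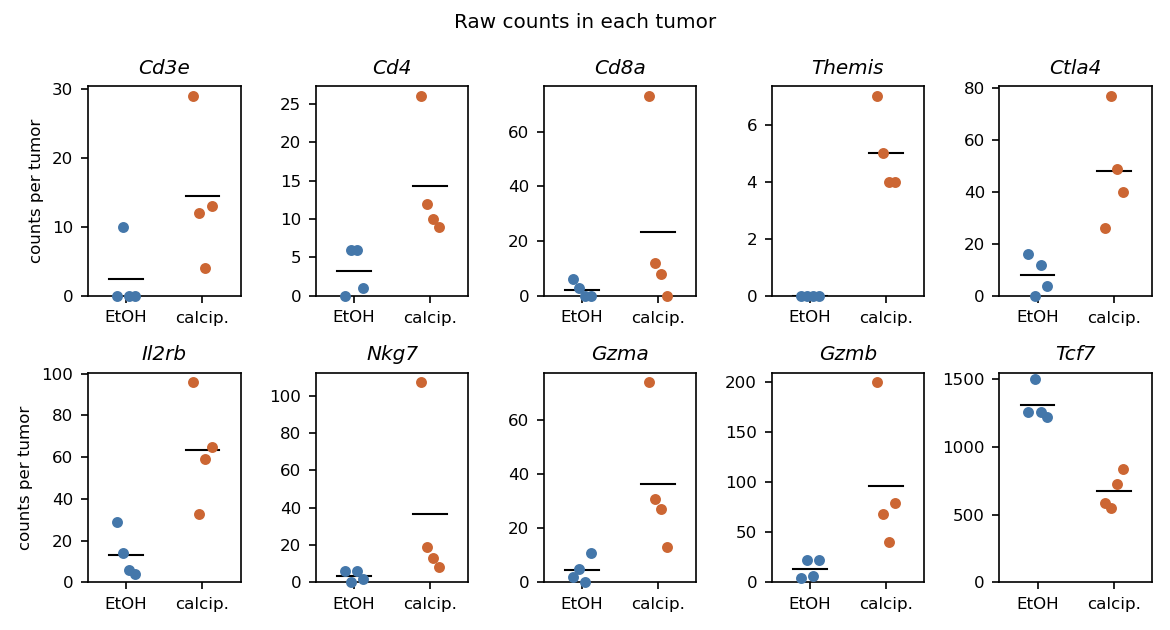
Raw counts (vertical axes, from 0, each panel on its own scale) of 10 genes in each EtOH-treated and calcipotriol-treated tumor, with a black line for the group mean. Themis was at 0 in all EtOH-treated tumors and at 4 to 7 counts with calcipotriol, Cd3e and Cd8a overlapped between the groups, and Tcf7 was lower in all calcipotriol-treated tumors.

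Among the signaling genes downstream of the receptor, Lck had the most counts, 12, 5, 0 and 6 with EtOH and 47, 44, 10 and 20 with calcipotriol. Calcipotriol replicate 6 lay below EtOH replicate 1, so the groups overlapped, and the log2 fold change was 2.25 ± 0.96 (SE, adjusted p = 0.249 from edgeR). Themis (chromosome 10, 28668360 to 28883818, plus strand), a regulator of receptor signaling in developing T cells, had 0 counts in every EtOH-treated tumor and 7, 5, 4 and 4 with calcipotriol. Against a floor of 3 counts over the EtOH group, it was at least 6.45-fold higher. Zap70 had 40 counts in all with EtOH and 53 with calcipotriol, and Lat had 36 and 80. Neither passed (adjusted p = 0.918 and 0.66 from edgeR).

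Of the 6 surface and co-stimulatory genes, none separated the groups. Cd2, an adhesion molecule of T and NK cells, had the most counts, 24, 16, 4 and 3 with EtOH and 59, 13, 23 and 21 with calcipotriol (log2 fold change 1.14 ± 0.83 SE, adjusted p = 0.508 from edgeR, and 0.63 without calcipotriol replicate 1). Icos, which activated T cells display, had 29 counts in all with EtOH and 89 with calcipotriol. Cd28, the main co-stimulatory receptor, had 54 and 45, and the log2 fold change was -0.36 ± 0.86 (SE, adjusted p = 0.865 from edgeR). Cd27 had 10 and 21 counts and Cd6 had 9 and 18. Cd5 had 0 counts in every EtOH-treated tumor and 0, 3, 5 and 0 with calcipotriol, so its groups overlapped. By the same floor its 8 counts gave a fold of 2.58.

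The inhibitory receptor gene Ctla4 (chromosome 1, 60887000 to 60915832, plus strand), which activated and regulatory T cells express, had 16, 0, 12 and 4 counts with EtOH and 26, 77, 49 and 40 with calcipotriol. Its groups did not overlap, and here calcipotriol replicate 1 was the lowest of its group rather than the highest. The log2 fold change was 2.56 ± 0.93 (SE, adjusted p = 0.175 from edgeR and 0.0296 from DESeq2), and it was 2.79 without calcipotriol replicate 1. Pdcd1, which encodes PD-1, had 9, 0, 11 and 12 counts with EtOH and 13, 10, 8 and 23 with calcipotriol, and the log2 fold change was 0.71 ± 0.93 (SE, adjusted p = 0.738 from edgeR).

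Il2rb (chromosome 15, 78479256 to 78495271, minus strand), the receptor chain that T and NK cells use for interleukin 2 and interleukin 15, had 29, 14, 6 and 4 counts with EtOH and 96, 33, 59 and 65 with calcipotriol. The groups did not overlap, with EtOH replicate 1 and calcipotriol replicate 5 closest. The log2 fold change was 2.12 ± 0.70 (SE, adjusted p = 0.138 from edgeR and 0.0263 from DESeq2), and it was 1.91 without calcipotriol replicate 1. Il2ra, the high-affinity chain of activated and regulatory T cells, overlapped at 1, 29, 18 and 38 counts with EtOH and 71, 24, 24 and 22 with calcipotriol. The 3 chains of this receptor thus had unlike values, with a positive log2 fold change for Il2rb and a negative one for Il2rg, and a difference between the 2 was not tested.

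Il12rb1, a chain of the interleukin 12 receptor, had 14, 22, 9 and 0 counts with EtOH and 121, 5, 23 and 10 with calcipotriol, so calcipotriol replicate 1 held most of its counts. The log2 fold change was 1.63 (adjusted p = 0.498 from edgeR), and 0.15 without that tumor. Il12rb2 had 0 counts with EtOH and 12, 0, 0 and 3 with calcipotriol, and 40.0% of its exon bases lie opposite exons of Serbp1. Tbx21, the T helper 1 factor T-bet, had 7 counts in EtOH replicate 1 and 24 and 5 in calcipotriol replicates 1 and 7, and 0 in the other 5 tumors. Bcl11b, a factor of T cell commitment, had 1, 0, 7 and 2 counts with EtOH and 30, 9, 4 and 19 with calcipotriol. The chemokine receptor gene Ccr8, which regulatory and T helper 2 cells can express, had 0 counts in every EtOH-treated tumor and 14, 7, 0 and 4 with calcipotriol, at least 8.06-fold higher by the floor of 3 counts, or 4.89-fold without calcipotriol replicate 1. Tcf7 thus moved opposite to the sum of the T cell genes of lower abundance.

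Other genes of T and NK cells were followed in 7 lists. Of their 84 matched genes, 42 were tested in edgeR, and 1 was higher and 1 was lower past both thresholds. The median log2 fold change was 0.19, against 0.02 over all genes tested and 0.26 over those with 10 to 500 summed counts. Log2 fold changes were positive in 54.8% of the 42, against 52.1% of all genes tested and 60.5% of those low genes. Klrc1, which encodes the inhibitory receptor NKG2A of NK cells and CD8+ T cells, had 0, 0, 0 and 3 counts with EtOH and 50, 17, 20 and 25 with calcipotriol. Its log2 fold change was 4.94 ± 1.12 (SE, adjusted p = 0.0467 from edgeR). It passed both thresholds in 6 of 16 fits, with adjusted p from 0.000998 to 0.129, and leaving out any tumor other than EtOH replicate 4 ended the call. So did a minimum count of 3 (adjusted p = 0.0673 from edgeR) and no filter (0.0508), and with 3 counts in all with EtOH it was kept by the filter through the calcipotriol-treated tumors. S1pr1, the receptor for lymphocyte exit that endothelial cells also express, had 526, 520, 369 and 350 counts with EtOH and 199, 165, 166 and 227 with calcipotriol. It fell with calcipotriol, where the mean was 8.26 ± 0.928 CPM (SD, n = 4) against 20.3 ± 5.93 CPM for EtOH (SD, n = 4), with an adjusted p of 0.0187 from edgeR. It passed in 12 of 16 fits and was not past both thresholds without EtOH replicate 1 or 2 or calcipotriol replicate 5 or 6 (adjusted p = 0.0546 to 0.0688). The 30 other T cell genes had 0 higher and 1 lower of 16 tested in edgeR, and 0 higher and 1 lower in DESeq2. Of the 16, 11 had negative log2 fold changes and 5 positive ones, with a median of -0.45. The 6 at an unadjusted p under 0.05 in edgeR, against the 18.4% of all genes, all had negative ones. The summed CPM of this list was 208.6 to 236.4 with EtOH and 118.4 to 213.5 with calcipotriol, a ratio of 0.653 with overlapping groups. Ets1 had the most counts of this list. The 26 other NK and cytotoxic genes had 1 higher of 13 tested, and their summed CPM overlapped (97.4 to 128.2 with EtOH, 84.8 to 125.7 with calcipotriol), most of it from Il18rap.

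The constant regions of the T cell receptor, for which 4 of 7 symbols matched, summed to 35, 35, 41 and 35 counts with EtOH and 108, 49, 64 and 41 with calcipotriol, with no overlap in CPM (1.54 to 1.70 against 1.74 to 4.29). None of the 3 tested passed or had an unadjusted p under 0.05 in edgeR, and DESeq2 called none. Trbc2, with the most counts, had 13, 30, 5 and 9 with EtOH and 47, 25, 13 and 10 with calcipotriol.

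Several genes of helper subsets were sparse, while others had many counts. Ifng, which encodes interferon gamma, had 0 counts in every EtOH-treated tumor and 34, 3, 7 and 9 with calcipotriol, at least 17.1-fold higher by the floor of 3 counts, or 8.45-fold without calcipotriol replicate 1. The T helper 2 cytokine genes were near the limit of detection. Il13 had 0 counts with EtOH and 0, 8, 6 and 2 with calcipotriol, Il5 had 0 with EtOH and 2, 9, 1 and 0 with calcipotriol, and Il4 had 6 counts in all with EtOH and 15 with calcipotriol. The chemokine receptor gene Ccr4 had 0 counts with EtOH and 0, 3, 1 and 5 with calcipotriol. Of the T helper 1, T helper 2 and regulatory T cell lists, 3, 2 and 4 genes were tested in edgeR, none passed, and none had an unadjusted p under 0.05. DESeq2 called 1 T helper 1 gene higher and none of the other 2 lists. The most abundant genes of these lists were Tnf (533 counts over all tumors), Il1rl1 (11397) and Tnfrsf9 (8609). Gata3 of the T helper 2 list had 10585. Il1rl1, Tnfrsf9 and Gata3 each had more counts than Tcf7, the most abundant member (7935). Foxp3, the factor of regulatory T cells, had 13, 0, 0 and 12 counts with EtOH and 18, 9, 8 and 9 with calcipotriol.

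Markers of other cells differed between the groups as well. All 6 pan-leukocyte markers had negative log2 fold changes (median -0.81, with Laptm5 the most abundant, 0 called by edgeR with 3 at an unadjusted p under 0.05, and 2 called by DESeq2), and their summed CPM was 478.5 to 730.8 with EtOH and 245.8 to 542.1 with calcipotriol. All 10 macrophage markers had negative log2 fold changes (median -0.92). Csf1r, Adgre1 and Lyz2 fell past both thresholds in edgeR, where 0.948% of all genes tested did. DESeq2 called 5 of the 10 lower and limma-voom 4, against 1.91% and 1.03% of the genes they tested. In edgeR 8 had an unadjusted p under 0.05, against 18.4% of all genes tested. Relative to Ptprc, the gene of the leukocyte antigen CD45, the summed CPM of the 34 genes was 0.268, 0.221, 0.0875 and 0.111 with EtOH and 0.93, 1.43, 0.965 and 0.684 with calcipotriol. These ratios did not overlap, but neither did the 34-gene sum before the division, and its genes were picked with their values known. Ptprc, the divisor, had a log2 fold change of -0.88 (adjusted p = 0.227 from edgeR), and a lower divisor raises the ratio. The ratios are therefore no separate test of T cell and NK cell genes per leukocyte.

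**Figure D5:**
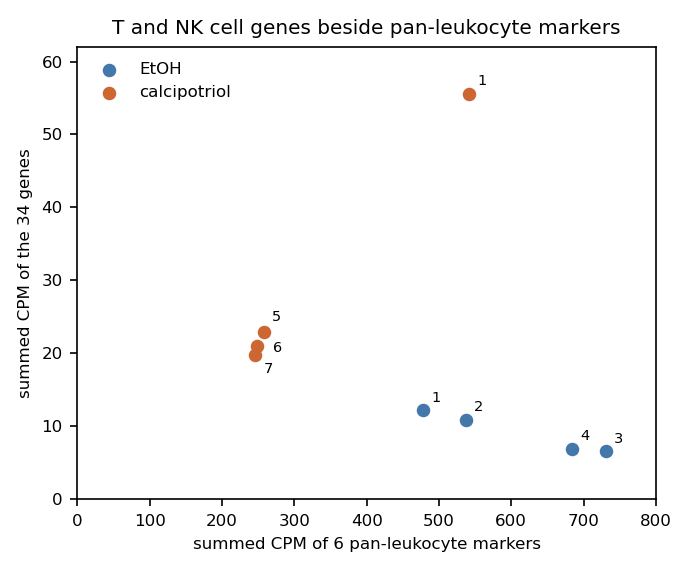
Summed CPM of the 34 T cell and NK cell genes without Tcf7 and Il2rg (vertical axis) against summed CPM of 6 pan-leukocyte markers (horizontal axis), with 1 numbered point per tumor. Calcipotriol replicates 5, 6 and 7 had the lowest leukocyte sums (245.8 to 257.8 CPM) and 34-gene sums above all EtOH-treated tumors, and calcipotriol replicate 1 had a leukocyte sum within the EtOH range with a 34-gene sum of 55.6 CPM.

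The inguinal fat pad holds a lymph node, so lymph node markers were examined too. The 12 B cell markers summed to 6.03 to 13.1 CPM with EtOH and 4.43 to 67.0 CPM with calcipotriol, where calcipotriol replicate 1 was the highest and the other 3 did not exceed 9.42 CPM. Ighm, the most abundant, had 989 counts in calcipotriol replicate 1 and 34 to 149 in the others, and the immunoglobulin genes Igkc (553 counts against 31 to 78) and Jchain (129 against 0 to 43) were highest there too. The defining B cell markers Cd79a and Ms4a1 had 0 counts in that tumor, Cd79b had 8, and Cr2 had 0 in all tumors. Cd79a (48 counts in all with EtOH and 4 with calcipotriol) and Ighd (58 and 9) were lower in every calcipotriol-treated tumor than in any EtOH-treated tumor. No B cell marker was called by edgeR, with 1 of 3 tested at an unadjusted p under 0.05, or by DESeq2. The 4 lymph node stroma markers summed to 0.584 to 5.22 CPM with EtOH and 3.46 to 9.81 CPM with calcipotriol, where calcipotriol replicate 1 was the lowest of its group. Ccl21a, the most abundant, had 16, 12, 122 and 95 counts with EtOH and 66, 74, 128 and 115 with calcipotriol, while Madcam1 had 0 in all tumors. Cxcl13, which encodes a B cell attractant, had 2, 0, 7 and 7 counts with EtOH and 21, 18, 72 and 106 with calcipotriol, with no overlap and a log2 fold change of 3.74 (adjusted p = 0.0743 from edgeR), and DESeq2 called 1 gene of this list higher. The part of these markers in the higher T cell gene counts was not tested. Neutrophil markers (30.8 to 106.7 CPM with EtOH, 41.9 to 152.9 CPM with calcipotriol), mast cell and basophil markers (15.9 to 56.5 and 17.5 to 60.6 CPM) and dendritic cell markers (7.94 to 16.0 and 5.24 to 24.9 CPM) overlapped between the groups, and edgeR and DESeq2 called none of these genes, with 1 gene of each list at an unadjusted p under 0.05 in edgeR. The most abundant of these lists were S100a9, Tpsb2 and Itgax. The 5 epithelial markers summed to 1011 to 1322 CPM with EtOH and 592.2 to 890.9 CPM with calcipotriol.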

How the data were processed

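Estimated counts per gene (expected counts of RSEM, not scaled between libraries) were deposited by the authors for 8 tumors. Per the submitters' processing notes the tools were STAR 2.5.3, RSEM 1.3.1 and DESeq2 1.24.0 with GRCm38, and the annotation release is not given in the sources used here. The labels name the NEBNext Ultra kit, which keeps no strand. In the table, 0 columns belonged to other samples. Estimates were rounded, as the planned tests take whole counts.

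Identifiers were matched to GENCODE M21 (52133 of 55414). The comparison used edgeR 4.0.16 in R 4.3.3 (filterByExpr with a minimum count of 10, TMM, quasi-likelihood test) over all 8 tumors. CPM used TMM library sizes, and exact permutation tests used log2(CPM + 0.1). Where every EtOH-treated tumor was at 0, folds were taken against a floor of 3 counts over the group. The floor covers counting error only, because PCR reads are not independent molecules. The calcipotriol counts were taken as exact, so a fold given as at least a value is a bound for the EtOH side only. Alternatives were DESeq2 1.42.0 and its size factors, limma-voom (limma 3.58.1), unrounded counts, a minimum count of 3, no filter, no fold minimum, other scalings, a pseudocount of 1 CPM, other subsets of the members and fits without 1 tumor at a time. The main edgeR fit was also run on simulated counts with known changes, which were placed in genes with more counts than most members have. Labels do not say that same-numbered tumors were paired, and p-values measure the spread between these mice.

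The named genes were the 36 members, with counts in every tumor for those past both thresholds, those whose groups did not overlap, Cd3e, Cd4, Cd8a and the most abundant member of each role, plus genes past both thresholds and the most abundant gene of each other list. Other genes named from those lists were chosen after their values were seen. The other lists covered T cell receptor constant regions, other T cell genes, T helper 1, T helper 2, regulatory T cell and T helper 17 genes, other NK and cytotoxic genes, and markers of B cells, lymph node stroma, leukocytes, macrophages, neutrophils, mast cells and basophils, dendritic cells and epithelium. Members and lists were chosen with earlier results of these data known. The promoter windows are from RefSeq (GRCm38.p6). The T helper 17 list is not reported here on its own. Protein sequences were not used here.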

Additional observations from a re-analysis of the deposited data

Results flagged for a closer look

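In each group of 4 tumors, the gap between an extreme tumor and its nearest neighbor was divided by the group's range and set against Dixon's critical value on log2(CPM + 0.1). Of 71 groups of values with any spread, 11 held such a tumor, where about 1 in 20 groups, or 3.6, would be flagged if values were normally distributed. These counts are not, and a gene with counts in a single tumor of a group is always flagged, so 11 and 3.6 cannot be compared. Most of the 11 came from such genes. Cd3e was at 0.487 CPM in EtOH replicate 2, Cd247 at 0.584 CPM in EtOH replicate 1, Cd8b1 at 0.162 CPM in EtOH replicate 3, Cd6 at 0.438 CPM in EtOH replicate 1, Cd27 at 0.405 CPM in EtOH replicate 3, Tbx21 at 0.34 CPM in EtOH replicate 1 and Ncr1 at 0.339 CPM in calcipotriol replicate 7, with the other 3 tumors of the group at 0 in each case. In 3 genes 1 tumor was at 0 while the others were not. These were Cd3g in EtOH replicate 4 (0 CPM against 0.365 to 0.487), Cd6 in calcipotriol replicate 7 (0 CPM against 0.238 to 0.32) and Pdcd1 in EtOH replicate 2 (0 CPM against 0.438 to 0.529).

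The sum of the 34 members without Tcf7 and Il2rg was 55.6 CPM in calcipotriol replicate 1, while calcipotriol replicates 5, 6 and 7 were at 19.8 to 22.9 CPM. The same tumor had the highest summed B cell markers, 67.0 CPM, and its summed pan-leukocyte markers, 542.1 CPM, were within the EtOH range. Their part in this sum was not tested.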

How the results depend on the processing

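No paired analysis was possible because the groups share the replicate number 1 only. The number of genes past both thresholds, 292, was 766 with the DESeq2 test and 458 with no filter on low counts, and with 1 tumor left out it ranged from 110 (without calcipotriol replicate 6) to 642 (without calcipotriol replicate 1). Members past both thresholds, 1, were 6 with DESeq2 and 2 with no filter, and 0 to 1 with 1 tumor left out, where the 1 was Il2rg in place of Tcf7 without calcipotriol replicate 1, with or without the filter (the second was added after seeing the data). Members without overlap, 8, numbered 8 to 13 with 1 tumor left out, with 13 without calcipotriol replicate 6. Leaving out a tumor cannot create an overlap, so this number could only stay the same or rise. The summed CPM ratio of 0.803 was 2.94 for the T cell receptor complex alone, 4.50 for cytotoxic effectors and NK receptors, and 3.26 without Tcf7 and Il2rg, a choice added after seeing the data. These subsets leave out the 2 abundant genes that were lower. With 1 tumor left out, the difference in log2(CPM + 0.1) ranged from 1.68 to 2.65 for Cd3e, with exact permutation p of 0.0286 without EtOH replicate 2, from 1.32 to 1.98 for Cd4, with p over 0.05 without any 1 of the calcipotriol-treated tumors, and from 0.84 to 2.48 for Cd8a, with p from 0.0571 to 0.4. Among the 18 tested members, 237 of 252 alternative values kept their direction and side of the thresholds. This number says little about robustness, because all of these members but Tcf7 were uncalled in the main fit. A fit with 1 tumor fewer also has less power to call them. Sizes could change within it: without calcipotriol replicate 1, the log2 fold change of Il12rb1 went from 1.63 to 0.15 and that of Il2ra from 0.63 to 0.13. The sign turned for Cd3g (-0.11 without calcipotriol replicate 1, from a left-out range of -0.11 to 2.26), Zap70 (-0.15 without EtOH replicate 3 and -0.0082 without calcipotriol replicate 1, range -0.15 to 0.67) and Cd28 (0.033 with limma-voom and 0.54 without EtOH replicate 1, range -0.70 to 0.54). The cause was not tested. The low counts limit the precision for most members, and a count of 0 in a library allows up to 0.12 to 0.152 CPM by the library totals before TMM normalization.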
